A study of Mus musculus with 4 samples.

Results

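The genes described here are 48 genes of protein folding in the endoplasmic reticulum and of the unfolded protein response, taken by symbol. Of these, 45 had a probe set of their own among the 22180 genes tested, while Pdia4, Erp29 and Fkbp10 had none and are not described further. A gene with several probe sets was represented by the one that read highest on average over the 4 arrays. The arrays were Affymetrix Mouse Gene 2.1 ST arrays, which read whole transcripts in a single colour. They were hybridized with total RNA of Beta-TC-6, an established mouse insulin-secreting pancreatic beta cell line, grown in DMEM with 25 mM glucose and 15% heat-inactivated serum. The siNF90 group (2 arrays) received a mixture of RNAi duplexes against NF90, a protein that binds double-stranded RNA, and the siNTC group (2 arrays) received a negative control siRNA. Both groups were transfected with the same lipid reagent. The comparison covers 1 cell line. Separate cultures for the arrays of a group are not stated in the labels, so each p-value reflects array-to-array spread that may be technical alone. The level of NF90 itself is not analysed here, and the arrays are described by their labels.

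Proteins that enter the secretory pathway are folded in the endoplasmic reticulum by the Hsp70 chaperone BiP and its co-chaperones, by the lectin cycle of calnexin and calreticulin, by enzymes that form and shuffle disulfide bonds, and by prolyl isomerases. Proteins that fail to fold are moved back to the cytosol and degraded. An excess of unfolded protein is sensed by IRE1alpha, PERK and ATF6, and the transcription factors XBP1 and ATF6 then raise the genes of folding and degradation. Beta cells depend on this system because proinsulin, their main cargo, has to form the correct disulfide bonds before it leaves the reticulum.

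Many of these genes carry known response elements for ATF6 and XBP1, so their promoters are described first. The search itself was run after the arrays had been compared. RefSeq promoter windows (GRCm38.p6, from 250 bases before to 50 after a start site) were found for 40 of the 48 members. The ER stress element ERSE, which is CCAAT followed by 9 bases of any kind and CCACG, was found on either strand in 10 of these 40 genes (25.0%), against 37 of all 27025 genes with a window (0.137%). The related ERSE-II, ATTGG and CCACG with 1 base between them, stood in 2 members (5.0%) and in 0.0444% of all genes. The UPRE, TGACGTGG, stood in 2 members (5.0%) and in 0.714% of all genes. The core CCACG, which is part of each of these motifs on one strand, stood in 34 members (85.0%) and in 35.5% of all genes. The sites are printed with 10 bases on each side, as read 5′ to 3′ on the strand of the gene. Capitals mark the fixed bases of the motif, which read ATTGG and CGTGG where the motif lies on the opposite strand. They are shown because they are a sequence feature that the rule for members did not use. The members were still chosen as genes of this response, so their high share of its elements is no independent result. The ERSE-II of Dnajb11 lies just past its start site and is not printed. A match is a description of the letters in a window and no measure of binding.
Hspa5 ERSE, chr2:34772015-34772053, + strand, 65 bases before the start site: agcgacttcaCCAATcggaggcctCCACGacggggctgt
Hsp90b1 ERSE, chr10:86705628-86705666, - strand, 212 bases before the start site: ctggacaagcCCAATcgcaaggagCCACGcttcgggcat
Hsp90b1 ERSE, chr10:86705523-86705561, - strand, 107 bases before the start site: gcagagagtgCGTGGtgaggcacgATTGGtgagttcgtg
Dnajc3 ERSE, chr14:118937817-118937855, + strand, 105 bases before the start site: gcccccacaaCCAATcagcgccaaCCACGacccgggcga
Calr ERSE, chr8:84847065-84847103, - strand, 162 bases before the start site: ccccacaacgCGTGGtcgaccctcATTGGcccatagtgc
Canx ERSE, chr11:50325790-50325828, - strand, 145 bases before the start site: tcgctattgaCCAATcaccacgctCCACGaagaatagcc
Pdia6 ERSE, chr12:17266481-17266519, + strand, 98 bases before the start site: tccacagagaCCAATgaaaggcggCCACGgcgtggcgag
Creld2 ERSE, chr15:88819510-88819548, + strand, 126 bases before the start site: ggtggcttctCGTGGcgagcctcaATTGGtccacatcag
Ero1b ERSE, chr13:12565672-12565710, + strand, 201 bases before the start site: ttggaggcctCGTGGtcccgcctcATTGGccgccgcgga
Syvn1 ERSE, chr19:6046522-6046560, + strand, 44 bases before the start site: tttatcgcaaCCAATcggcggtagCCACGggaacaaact
Derl3 ERSE, chr10:75893232-75893270, + strand, 156 bases before the start site: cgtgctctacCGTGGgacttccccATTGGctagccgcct
Herpud1 ERSE-II, chr8:94386367-94386397, + strand, 52 bases before the start site: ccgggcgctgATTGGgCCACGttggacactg
Txndc5 UPRE, chr13:38528035-38528062, - strand, 138 bases before the start site: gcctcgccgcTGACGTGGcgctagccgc
Txndc11 UPRE, chr16:11134617-11134644, - strand, 102 bases before the start site: gaagtgtggcTGACGTGGagagtccggg

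On the arrays, the members that stood furthest above control in siNF90 were the prolyl isomerases Fkbp11 and Fkbp2 and the disulfide isomerase Txndc5. The lowest were Edem1, which marks misfolded glycoproteins for disposal, and the stress sensor Atf6. No member passed limma's test over all genes at an adjusted p of 0.05, where the smallest adjusted p of a member was 0.357 and 0 of all genes passed (percent called 0). At an unadjusted p under 0.05 there were 7 members higher, which is 15.6% of the 45 measured, against a background of 5.87% of all genes. In the lower direction there were 2 members, or 4.44%, against a background of 4.41%. Leaving out 1 array at a time gave 3 to 5 members higher, against 3.34% to 4.57% of all genes, and 0 to 2 lower, against 2.61% to 3.32%. In either direction 10.3% of all genes had such a p. Most members lie at or above the median level of the arrays (44 of 45), and among all genes at or above that level 8.17% were higher and 6.16% lower at the same p. That level is low (1.845) and most members read far above it, so these shares are not closely matched by level either. When limma's prior for the variance was allowed to depend on expression level (a trend), the adjusted p was 0.0153 for Fkbp11 and also 0.0153 for Fkbp2, and these 2 of 45 members passed where 0.234% of all genes passed in that direction. No member passed in the lower direction there, against 0.221% of all genes. At an unadjusted p under 0.05 this fit had 14 members higher, against 6.78% of all genes, and 5 lower, against 5.46%. The shares for this fit are over genes of every level. None was worked out for genes at or above the median level, where 44 of 45 members lie, so these counts are not matched by level.

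**Figure D1:**
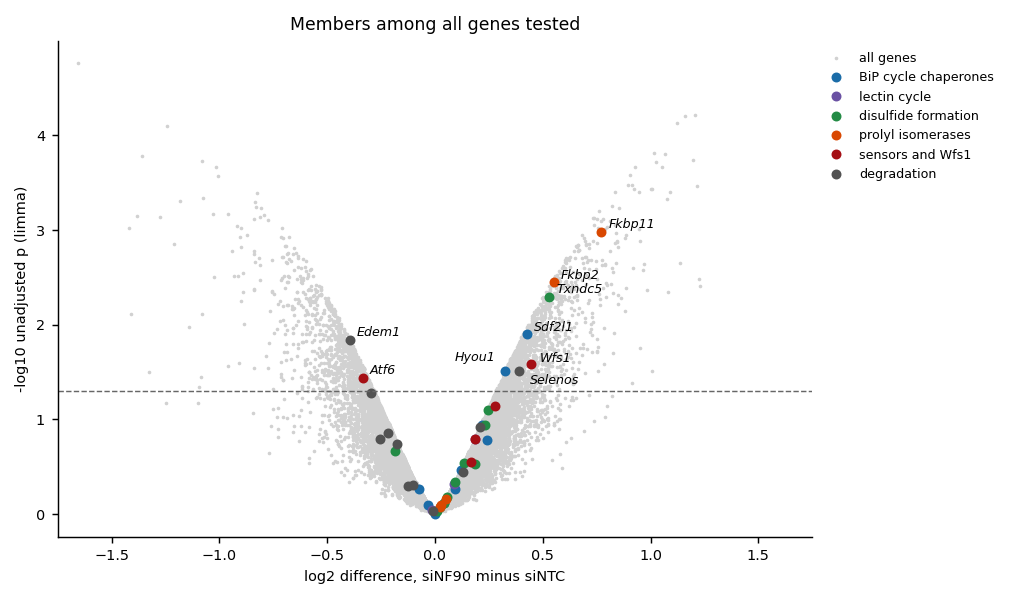
Each point is a gene, with its log2 difference (siNF90 minus siNTC) on the horizontal axis and the negative log10 of limma's unadjusted p on the vertical axis. Members are coloured by role over all 22180 genes in grey, the dashed line marks an unadjusted p of 0.05, and the 9 members above it are named.

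Of the 45 members, 31 had a difference above 0, 13 below 0 and Hspa13 exactly 0, where 53.1% of all genes, and 52.7% of those at or above the median level, had a difference above 0. The median log2 difference was 0.09 over the members and 0.015 over all genes. In 20 members each siNF90 array read higher than each siNTC array (44.4%), against a background of 21.9% of all genes and 26.2% of genes at or above the median level. In 8 members both siNF90 arrays lay below (17.8%), against 17.9% of all genes and 21.6% at or above the median level. Most members read far above the median level (1.845), so none of these shares is closely matched by level. Over all genes the groups were apart in 39.8%, in either direction. Arrays of a group lay closer together for the members than for all genes. The median absolute gap was 0.08 between the siNF90 arrays and 0.07 between the siNTC arrays, where the same gap over all genes was 0.15 in both groups. This gap was not compared with genes of similar level, and 44 of the 45 members lie at or above the median level.

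**Figure D2:**
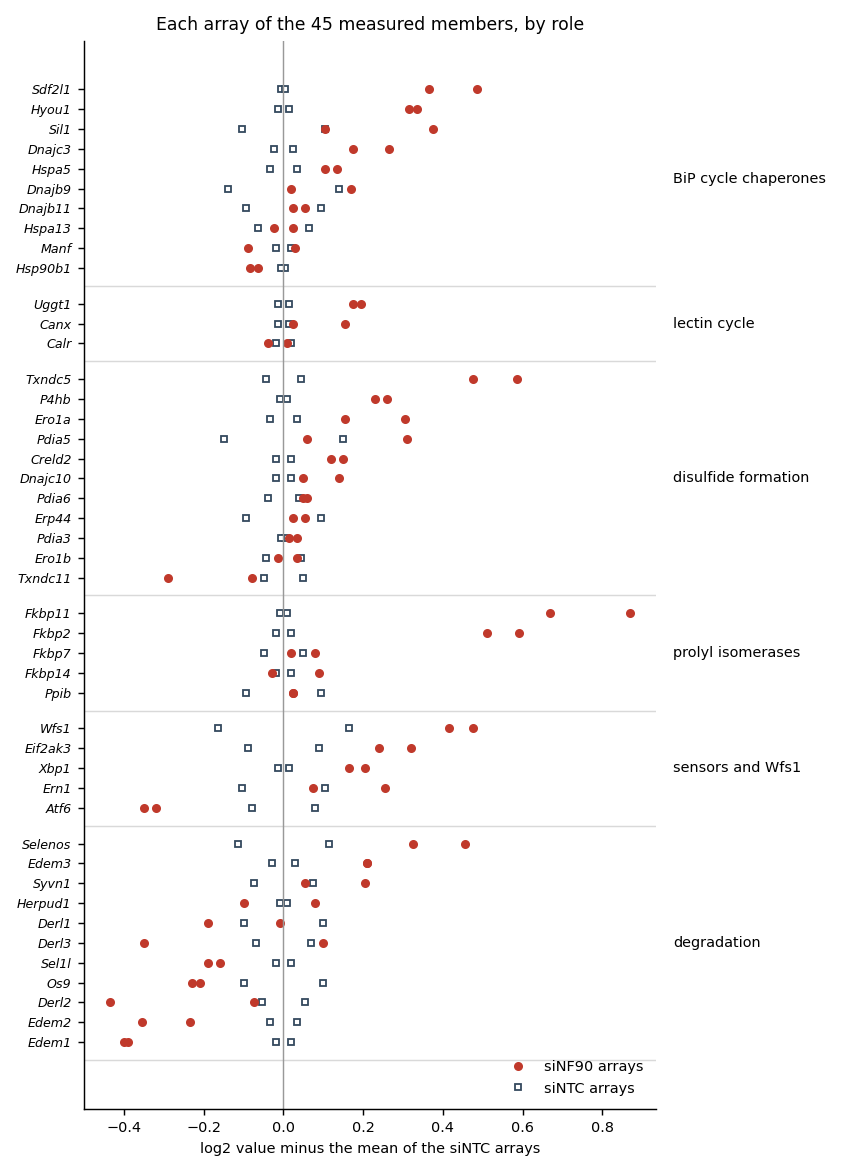
Each row is one of the 45 measured members, grouped by role and ordered by difference, and each symbol is 1 array, given as its log2 value minus the mean of the siNTC arrays. Filled circles are siNF90 arrays and open squares siNTC arrays; both circles of Fkbp11 lie to the right of all others, and most rows of the degradation group lie to the left of 0.

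Among BiP and its partners, 7 of 10 genes had a difference above 0 and 2 below, with a median of 0.11. Hspa5, which encodes BiP and is the usual marker of the unfolded protein response, read 7.53 and 7.5 on the siNF90 arrays, against 7.43 and 7.36 on the siNTC arrays (log2). The groups did not overlap, but the difference was small, at 0.12 ± 0.12 (log2, SE, n = 2 arrays each; limma adjusted p = 0.78). Sdf2l1, a partner of the J-domain protein ERdj3, read 6.37 and 6.49 in siNF90 and 6 and 6.01 in siNTC. That is 1.34-fold higher (difference 0.43 ± 0.12, unadjusted p = 0.0126, adjusted p = 0.409 by limma), with a clear gap between the groups. Hyou1, the large chaperone GRP170 that also exchanges nucleotides on BiP, read 7.97 and 7.99 in siNF90 and 7.67 and 7.64 in siNTC. It was 1.25-fold higher (0.33 ± 0.12, unadjusted p = 0.0311, adjusted p = 0.448 by limma), and the arrays of each group lay within 0.03 of each other.

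The other BiP partners showed smaller differences. Dnajc3, the co-chaperone p58IPK, differed by 0.22, without overlap. Sil1, the other nucleotide exchange factor, differed by 0.24, but the lower siNF90 array and the higher siNTC array both read 4.67. The J-domain proteins Dnajb9 (ERdj4) and Dnajb11 (ERdj3) differed by 0.1 and 0.04 with overlapping groups. Hsp90b1, the luminal Hsp90 chaperone GRP94, read 10.4 and 10.42 in siNF90 and 10.49 and 10.48 in siNTC, a difference of -0.08 ± 0.12. Its arrays did not overlap because they were close within each group. Manf, a stress-induced protein that binds BiP, differed by -0.03 with overlapping groups.

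In the lectin cycle, Uggt1, the glucosyltransferase that returns misfolded glycoproteins to calnexin, read 7.6 and 7.62 in siNF90 and 7.41 and 7.44 in siNTC. The difference was 0.19 ± 0.12 (limma adjusted p = 0.642), and the groups did not overlap. Canx, the membrane lectin calnexin, read 9.7 and 9.83 in siNF90 and 9.66 and 9.69 in siNTC. Its difference of 0.09 ± 0.12 (limma adjusted p = 0.85) came mainly from the second siNF90 array and was 0.03 without it. Calr, the soluble lectin calreticulin, differed by -0.02 with overlapping groups.

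Of the genes that form and shuffle disulfide bonds, 10 of 11 had a difference above 0, with a median of 0.1. Txndc5 (ERp46), an isomerase with several thioredoxin domains, read 5.7 and 5.59 in siNF90 and 5.16 and 5.07 in siNTC. It was 1.44-fold higher (0.53 ± 0.12, unadjusted p = 0.00506, adjusted p = 0.357 by limma), and neither group came near the other. P4hb, the archetypal protein disulfide isomerase PDI, read 9.52 and 9.49 in siNF90 and 9.27 and 9.25 in siNTC. That is 1.19-fold higher (0.25 ± 0.12, unadjusted p = 0.0789, adjusted p = 0.537 by limma). Its standard error came almost wholly from the prior that limma shares over genes, since the arrays of each group lay within 0.03.

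The oxidases that recharge PDI stood apart from each other. Ero1a, the broadly expressed form, read 7.27 and 7.42 in siNF90 and 7.08 and 7.15 in siNTC, a difference of 0.23 without overlap. A second probe set of this gene, at a lower level, read 2.89 and 3.34 in siNF90 and 2.73 and 3.09 in siNTC. It differed by 0.21 with overlapping groups. Ero1b, the form abundant in pancreas, read 9.24 and 9.19 in siNF90 and 9.25 and 9.16 in siNTC, a difference of 0.01 with overlapping groups. The difference between these 2 genes was not tested. Creld2, a stress-induced protein with isomerase activity, differed by 0.14, and the reductase Dnajc10 (ERdj5) by 0.1, both without overlap. Pdia3 (ERp57) and Pdia6 (P5) lay close to 0, at 0.03 and 0.06. Pdia5 differed by 0.19 with overlapping groups, and Erp44, which retrieves thiol-bearing clients, by 0.04. Txndc11, a membrane protein with thioredoxin domains, was the only one of the 11 with a difference below 0. It read 4.96 and 5.17 in siNF90 and 5.3 and 5.2 in siNTC, so most of its difference of -0.19 came from the first siNF90 array.

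The prolyl isomerases split into a pair with the highest differences of all members and a group near 0. Fkbp11, an FK506-binding protein of secretory cells, read 7.27 and 7.07 on the siNF90 arrays, against 6.39 and 6.41 on the siNTC arrays. It was 1.71-fold higher (0.77 ± 0.13, unadjusted p = 0.00104, adjusted p = 0.357 by limma). Fkbp2, a luminal FK506-binding protein, read 8.12 and 8.04 in siNF90 and 7.51 and 7.55 in siNTC. It was 1.46-fold higher (0.55 ± 0.12, unadjusted p = 0.00358, adjusted p = 0.357 by limma). For both genes every siNF90 array lay well above every siNTC array, and leaving out any 1 array left differences of 0.67 to 0.87 for Fkbp11 and 0.51 to 0.59 for Fkbp2. By rank of limma's p over all 22180 genes, Fkbp11 stood at 60 and Fkbp2 at 211. Ppib (cyclophilin B), Fkbp14, which acts on collagens, and Fkbp7 differed by 0.03, 0.03 and 0.05 with overlapping groups. Fkbp7 read between 1.55 and 1.68 on all 4 arrays, below the median level of all genes, and the table holds no measure of background for it.

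**Figure D3:**
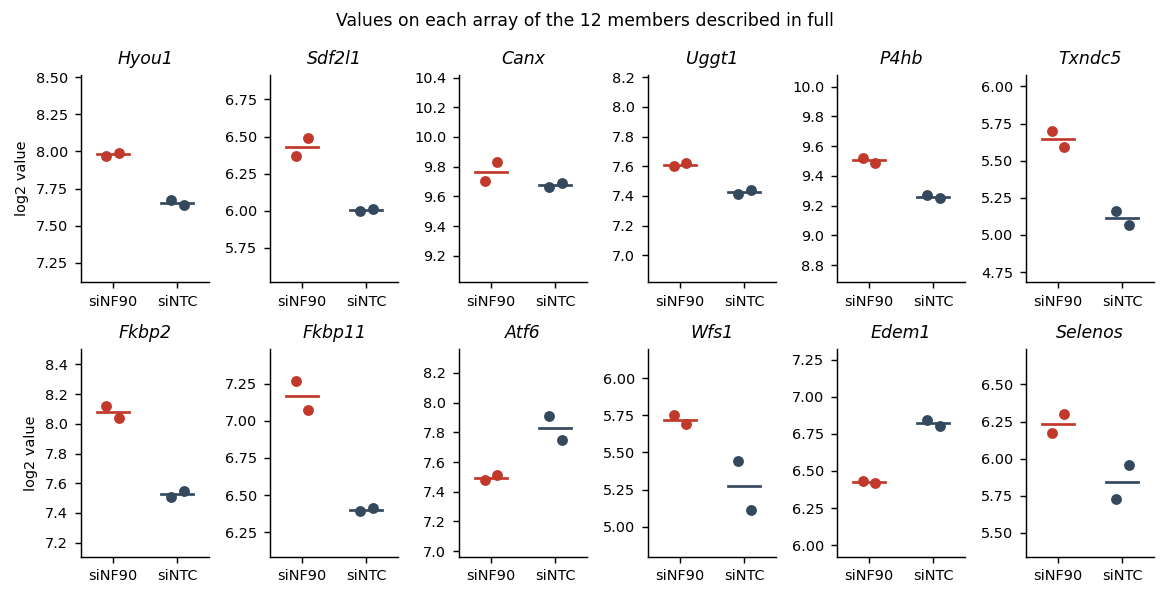
The log2 value of each array for the 12 members described in full, with siNF90 arrays on the left and siNTC arrays on the right of each panel and a bar at the group mean. Every panel spans the same range on the log2 scale around its own level; Atf6 and Edem1 are lower in siNF90 and the other 10 higher.

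The sensors did not differ in the same direction. Atf6, which is cut at the Golgi to release a transcription factor, read 7.48 and 7.51 in siNF90 and 7.91 and 7.75 in siNTC. It was 1.26-fold lower (-0.34 ± 0.12, unadjusted p = 0.0364, adjusted p = 0.459 by limma), without overlap. Eif2ak3, the kinase PERK that slows translation, read 5.71 and 5.79 in siNF90 and 5.38 and 5.56 in siNTC, a difference of 0.28 ± 0.13 (unadjusted p = 0.0728, adjusted p = 0.533 by limma). Xbp1, whose transcript is spliced by IRE1alpha, read 7.59 and 7.55 in siNF90 and 7.4 and 7.37 in siNTC, a difference of 0.19 ± 0.12 without overlap. The value covers the whole transcript and does not tell the spliced form from the unspliced one. Ern1, which encodes IRE1alpha, differed by 0.17 with overlapping groups. Wfs1 encodes wolframin, a membrane protein of the reticulum that restrains stress signalling in beta cells. It read 5.75 and 5.69 in siNF90 and 5.44 and 5.11 in siNTC and was 1.36-fold higher (0.45 ± 0.15, unadjusted p = 0.026, adjusted p = 0.439 by limma). Its siNTC arrays were far apart, so the difference was 0.28 without the second siNTC array and 0.61 without the first.

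Genes of degradation were the only role with a median below 0, at -0.13, and 8 of 11 had a difference below 0. That median was -0.01 without the second siNF90 array. Edem1, a mannosidase-like factor that takes misfolded glycoproteins out of the folding cycle, read 6.43 and 6.42 in siNF90 and 6.84 and 6.8 in siNTC. It was 1.31-fold lower (-0.4 ± 0.12, unadjusted p = 0.0146, adjusted p = 0.409 by limma), and no array came near those of the other group. A second probe set of Edem1 read between 1.16 and 1.2 on all arrays and differed by -0.03. Its paralogue Edem2 read 6.21 and 6.09 in siNF90 and 6.48 and 6.41 in siNTC, a difference of -0.3 ± 0.12 (unadjusted p = 0.0525, adjusted p = 0.492 by limma). Edem3, the third mannosidase of the family, read 7.1 on both siNF90 arrays and 6.92 and 6.86 on the siNTC arrays, a difference of 0.21 ± 0.12. None of these groups overlapped, so the direction of Edem3 was opposite to that of Edem1 and Edem2 on every array, and this contrast was not tested.

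The HRD1 complex, which ubiquitinates proteins as they leave the reticulum, was also mixed. Sel1l, its adaptor, read 6.74 and 6.77 in siNF90 and 6.95 and 6.91 in siNTC, a difference of -0.18 ± 0.12. Os9, the lectin that hands clients to SEL1L, read 6.92 and 6.9 in siNF90 and 7.23 and 7.03 in siNTC, a difference of -0.22 ± 0.13. Both were lower without overlap, while the ligase gene Syvn1 (HRD1) differed by 0.13 and the organiser Herpud1 by -0.01, with overlapping groups. Selenos, a selenoprotein that links derlins to the segregase p97, went the other way. It read 6.17 and 6.3 in siNF90 and 5.73 and 5.96 in siNTC and was 1.31-fold higher (0.39 ± 0.14, unadjusted p = 0.0308, adjusted p = 0.446 by limma). A second probe set of Selenos, at 1.19 or less in siNF90 and 1.26 or less in siNTC, differed by 0. The derlins, membrane proteins of the retrotranslocation channel, differed by -0.1 (Derl1), -0.26 (Derl2) and -0.13 (Derl3). Only Derl2 did not overlap, by a gap of 0.02, and a second probe set of that gene, at a lower level, differed by 0.37 in the opposite direction.

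**Figure D4:**
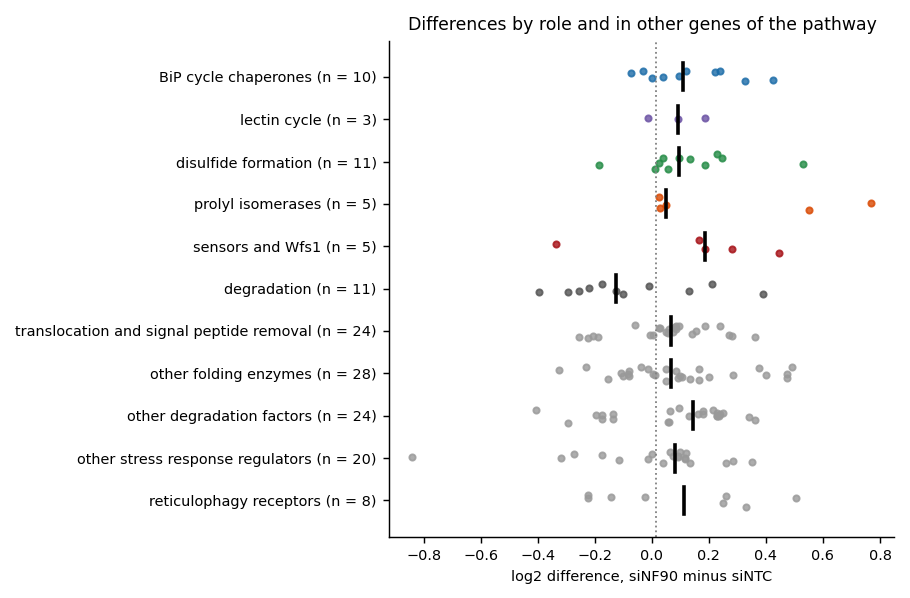
Log2 differences (siNF90 minus siNTC) of the members by role, in colour, and of other genes of the same pathways, in grey, with a black bar at each median and a dotted line at the median of all genes. Degradation is the only row with its median to the left of 0; the number of genes is given beside each name.

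Of the 9 members at an unadjusted p under 0.05, 7 had a promoter window, while Hyou1 and Atf6 had none. Of these 7 windowed genes, 0 held an ERSE, 1 held a UPRE and 6 held the core. Among all 40 members with a window the shares were 25.0%, 5.0% and 85.0%, and 7 genes are too few to tell their shares from these. The 10 members with an ERSE had differences between -0.13 and 0.22 with a median of 0.07. The 29 measured members with a window but no ERSE had differences between -0.4 and 0.77 with a median of 0.1. Of the ERSE genes printed above, Dnajc3 had the highest difference and Derl3 the lowest, and Hspa5 stood at 0.12. The UPRE genes were Txndc5 at 0.53 and Txndc11 at -0.19, on opposite sides of 0. The ERSE-II genes Herpud1 and Dnajb11 stood at -0.01 and 0.04. Fkbp11, Fkbp2, Sdf2l1, Selenos and Edem1 held the core alone. These are descriptions of the windows of 40 genes, with no test. Only exact matches were counted, so a site that departs from the motif by a base is missed, and the letters outside a window were not searched.

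**Figure D5:**
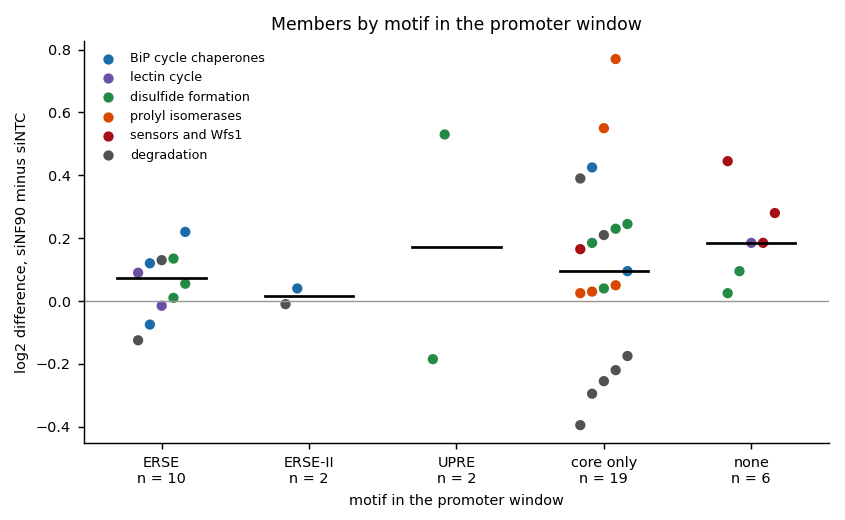
Log2 differences (siNF90 minus siNTC) of the 39 measured members with a promoter window, by the motif that the window holds, coloured by role, with a bar at each median. The 10 genes with an ERSE lie between -0.13 and 0.22, and the genes with the core alone span -0.4 to 0.77.

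Other genes of the same pathways, from lists drawn up by name, had medians close to that of the members. In protein translocation and signal peptide removal, 18 of 24 measured genes had a difference above 0 (median 0.07). At an unadjusted p under 0.05 there was 1 higher and 0 lower, namely Sec11c, a signal peptidase subunit that read 7.47 and 7.6 in siNF90 and 7.18 and 7.17 in siNTC. Among other folding enzymes, 18 of 28 were above 0 (median 0.07), with 2 higher and 0 lower at that p. These were Dnajb14, a membrane J-domain protein that differed by 0.49 ± 0.13, and the selenoprotein Selenom at 0.48 ± 0.13. Other degradation factors had 17 of 24 above 0 and a median of 0.15, unlike the degradation members, and the difference between these lists was not tested. Of them, 2 were higher and 1 lower at an unadjusted p under 0.05, with Ufd1, a cofactor of p97, at 0.34 ± 0.12 and Erlin1, a prohibitin-family membrane protein, at -0.41 ± 0.12.

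Other regulators of the stress response had 13 of 20 above 0 (median 0.08), with 1 higher and 1 lower at that p. Atf6b, the paralogue of Atf6, read 4.67 and 4.63 in siNF90 and 4.26 and 4.34 in siNTC (0.35 ± 0.12), opposite in direction to Atf6. Trib3, a pseudokinase gene induced downstream of PERK, read 2.93 and 2.43 in siNF90 and 3.49 and 3.55 in siNTC (-0.84 ± 0.19). Receptors of reticulophagy, the autophagy of the reticulum, had 4 of 8 above 0 (median 0.11), with Tex264 at 0.51 ± 0.18 and Retreg1 at 0.33 ± 0.13 as the 2 genes past that p. In each of these lists 0 genes passed limma's adjusted threshold, with or without the trend. Their counts at an unadjusted p stand against 5.87% of all genes higher and 4.41% lower. Most genes of these lists lie at or above the median level, where the shares were 8.17% and 6.16%. A difference above 0 was seen in 53.1% of all genes and in 52.7% of those at or above the median level.

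Markers of the labelled cell type were present. All 14 measured beta cell markers lay at or above the median level, and their summed level on the linear scale was 4590 and 4573 on the siNF90 arrays, against 4968 and 4814 on the siNTC arrays. Iapp, Slc30a8, Chga and G6pc2, the most abundant of these markers, carry most of that sum. Gene by gene, 5 had a difference above 0 and 8 below, with a median of -0.04. Of all genes at or above the median level, 52.7% had a difference above 0. At an unadjusted p under 0.05 the transcription factor genes Nkx6-1 (0.45 ± 0.12, unadjusted p = 0.00956, adjusted p = 0.397 by limma) and Mafa (0.38 ± 0.15, unadjusted p = 0.046, adjusted p = 0.481 by limma) were higher. Kcnj11, a potassium channel subunit, was lower (-0.45 ± 0.14, unadjusted p = 0.0182, adjusted p = 0.417 by limma). Among genes at or above the median level 8.17% were higher and 6.16% lower at an unadjusted p under 0.05. Ins2, an insulin gene and so a main cargo of this folding system, read 7.88 and 8.01 in siNF90 and 7.98 and 8 in siNTC. Acinar cells of the pancreas are rich in the same folding genes. Of 10 acinar markers only Bhlha15 lay at or above the median level, with sums of 30.9 and 31.1 in siNF90 and 30.3 and 28.1 in siNTC. Bhlha15 alone read 3.34 and 3.07 in siNF90 and 2.94 and 2.95 in siNTC, so it weighs heavily in these sums. It is also counted among the other regulators of the stress response above. Of 10 fibroblast and macrophage markers 0 did, with sums of 24.2 and 22.7 in siNF90 and 21.5 and 21.9 in siNTC. The part of these shifts in the differences of the members was not tested, and fewer cells of a type and less RNA per cell cannot be told apart in bulk RNA.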

How the data were processed

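Total RNA of transfected Beta-TC-6 cells was read on 4 arrays, 2 labelled siNF90 and 2 siNTC. The authors deposited a log2 value for each of 41345 probe sets, and the submitters' processing notes name Transcriptome Analysis Console. The sources used here give neither its version nor the background correction and normalization, and base 2 is taken from the range of the values. Array medians lay between 1.65 and 1.68. Gene names came from GEO's platform annotation, which gives 1 symbol to 23521 probe sets. The number of arrays limits the precision.

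The whole table of 22180 genes was fitted with limma 3.58.1 in R 4.3.3 (lmFit, then eBayes with no trend) as siNF90 minus siNTC, with two-sided p-values, Benjamini-Hochberg adjustment over all genes and a threshold of 0.05. Each gene had 2 residual degrees of freedom, and the prior added 3.92. The fit was tested on simulated data whose spread was drawn from its own prior, the same at every level. Such data cannot judge the choice of a prior without a trend. With 2 arrays a group no exact permutation test of a single gene can reach that threshold, and none was run. No set test was run.

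Members at an unadjusted p under 0.05, and at least the 2 with the largest difference in each role, are given with every array, and so are some others chosen after their values were seen. Lists name up to 2 genes past that p. The members, roles and lists were chosen with earlier results of these data known. Alternatives were a trend or robust prior, the replicate number as a block, a filter on level, centring on the median, quantile normalization, other uses of a gene's probe sets and leaving out each array.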

Additional observations from a re-analysis of the deposited data

How the results depend on the processing

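The direction of all 12 members described in full was the same under the 12 alternatives run. For most alternatives this was fixed in advance. Another prior, the block, the filter on level and single probe sets leave the difference of these members as it was. Leaving out 1 array cannot turn a difference whose groups do not overlap. Only quantile normalization, centring and averaging of probe sets could have changed a direction. An adjusted p under 0.05 was reached only by Fkbp11 and Fkbp2 with a trend in limma's prior (0.77 and 0.55, adjusted p = 0.0153 for both). Over all alternatives the adjusted p ranged from 0.0153 to 0.764 for these 2 genes. With that prior 101 genes passed over the whole table, 2 of them members. At an unadjusted p under 0.05 it had 14 members higher and 5 lower, against 6.78% and 5.46% of genes of every level, with no share matched by level. With the replicate number as a block 0 genes passed, and 6 members were higher and 1 lower at an unadjusted p, against 4.87% and 3.57% of all genes. The numbers are not stated to mark a shared culture or day, and same-numbered arrays did not deviate together (correlation of -0.0202 over all genes). When the probe sets of a gene were averaged, 6 members were higher and 1 lower at that p (5.77% and 4.42% of all genes), since low second probe sets brought Edem1 to -0.21 and Selenos to 0.195 (adjusted p = 0.598 and 0.681 by limma). A filter at the median level removed Fkbp7 and moved the median of the prolyl isomerases to 0.29. With that filter 7 members were higher and 3 lower at an unadjusted p under 0.05, against 9% and 6.9% of the genes kept. Centring gave 7 higher and 3 lower at that p, against 5.01% and 5.19% of all genes. With centring 17 members were higher and 8 lower without overlap, against 20.3% and 20.5% of all genes. Leaving out each array in turn, which leaves 1 group with a lone array assumed to vary like the others, gave 3 to 5 members higher and 0 to 2 lower at an unadjusted p. Without overlap, which a lone array makes easier for every gene, 23 to 27 members were then higher, against 35.5% to 37.6% of all genes, and 10 to 13 lower, against 30.0% to 33.5%. The medians then ran from 0.06 to 0.095 over all members, 0.0625 to 0.185 for chaperones, 0.035 to 0.135 for disulfide genes, 0.025 to 0.12 for prolyl isomerases and -0.195 to -0.01 for degradation. The degradation median was -0.01 without the second siNF90 array, so its distance from 0 rests on that array. The table gives no signal over background, which limits what can be said of low probe sets such as Fkbp7.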

Other observations

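The ERSE was also found in the promoter windows of 27 genes that are not members, and 19 of these were measured. Most of these 19 genes read below the median level of all genes (1.845), so their differences say little about expressed genes with an ERSE. The differences of the 19 between siNF90 and siNTC ran from -0.54 to 0.19 with a median of -0.02, with 8 above 0 and 11 below. Of the 19, 1 had an unadjusted p under 0.05 by limma, where 10.3% of all genes did. That gene was Olfr59, an olfactory receptor gene, which read 0.79 and 0.74 in siNF90 and 1.02 and 1.58 in siNTC, below the median level. Alg12, a mannosyltransferase of N-glycan assembly in the reticulum, was named after its value was seen. It read 6.08 and 5.91 in siNF90 and 6.22 and 6.15 in siNTC, a difference of -0.19 ± 0.13 without overlap. This search was made after the member promoters had been examined.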
